A study of Mus musculus with 6 samples.

Results

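The immunoglobulin constant region genes were described in the colon of ADAMTS4 knockout (KO) and wild-type (WT) mice, with 3 libraries per genotype. Members were the rows of the deposited gene table whose symbol is Ighm, Ighd, Ighg1, Ighg2b, Ighg2c, Ighg3, Igha, Igkc, Iglc1 or Iglc2, which gave 10 of 21899 genes. Both groups had received 2.5% dextran sodium sulfate (DSS), a polysaccharide that injures the colonic epithelium, for 7 days, and no uninjured mice were part of the comparison. The labels state no strain, sex, age, litter or allele, so an effect of the missing protease and one of any other genetic difference between the groups cannot be told apart. ADAMTS4 is a secreted metalloproteinase that cuts large proteoglycans of the extracellular matrix. The labels number the libraries within a genotype without saying that each came from 1 animal, so tests measure the spread between these samples. Where values of 1 group follow each other without a name, they stand in the order of libraries 1, 2 and 3.

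An antibody is built of paired heavy and light chains, and the constant region of the heavy chain sets its class. A resting B cell makes IgM and IgD together from one long transcript, and class switching later cuts out the DNA between the variable segment and a downstream constant gene, so that the same variable segment is joined to an IgG, IgE or IgA constant region. Most antibody RNA in the gut wall comes from plasma cells of the lamina propria, which chiefly make IgA joined by the J chain, and epithelial cells carry that IgA into the lumen on the receptor encoded by Pigr. Naive and follicular B cells of the gut lymphoid tissue carry IgM and IgD on their surface.

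In GENCODE M21 on GRCm38 the 7 heavy chain genes lie together on the minus strand of chromosome 12. Read in the direction of transcription they run from Ighm (113418558 to 113422730) through Ighd (113406604 to 113416324), Ighg3 (113356224 to 113361232), Ighg1 (113325240 to 113330523), Ighg2b (113302965 to 113307933) and Ighg2c (113285325 to 113288932) to Igha (113254830 to 113260236). Igkc, the kappa light chain constant, lies on the plus strand of chromosome 6 (70726435 to 70726966). The lambda constants Iglc1 (19061618 to 19062071) and Iglc2 (19198396 to 19200351) lie on the minus strand of chromosome 16. All carry the annotation of an immunoglobulin constant gene, and the deposited counts are per gene, so secreted and membrane forms of a heavy chain were not separated.

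The 4 IgG genes are told apart most easily by the hinge, the flexible stretch between the arms and the stem of the antibody, which their second coding exon encodes. These exons are shown because the comparison below turns on how Ighg1, Ighg2b, Ighg2c and Ighg3 differ between libraries. Capitals mark the in-frame cysteine codons, which link paired heavy chains by disulfide bonds, and sequences are the GENCODE M21 transcripts, 5′ to 3′ on the minus strand of chromosome 12.
Ighg1, chr12:113329844-113329882: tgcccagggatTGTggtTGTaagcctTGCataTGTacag
Ighg2b, chr12:113307261-113307326: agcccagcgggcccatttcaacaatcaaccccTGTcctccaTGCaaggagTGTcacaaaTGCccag
Ighg2c, chr12:113288263-113288325: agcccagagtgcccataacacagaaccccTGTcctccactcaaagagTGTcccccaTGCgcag
Ighg3, chr12:113360529-113360576: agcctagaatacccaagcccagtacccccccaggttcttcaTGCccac
The hinge exon is 39 bases long in Ighg1, 66 in Ighg2b, 63 in Ighg2c and 48 in Ighg3, with 4, 4, 3 and 1 cysteine codons. Over the secreted coding sequence Ighg2b and Ighg2c are 85.6% identical, the closest pair among the heavy chain genes, against 74.2% for Ighg1 and Ighg2b.

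The lambda constants are shown because Iglc2 has a near copy that is no member, Iglc3, whose reads can be confused with its own. Below are 90 coding bases of each on the minus strand of chromosome 16, with capitals where a base differs from Iglc2.
Iglc2, chr16:19198763-19198852: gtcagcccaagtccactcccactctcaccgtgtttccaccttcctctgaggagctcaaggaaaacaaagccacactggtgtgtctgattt
Iglc3, chr16:19065592-19065681: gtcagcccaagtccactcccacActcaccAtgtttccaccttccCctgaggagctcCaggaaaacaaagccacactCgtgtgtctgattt
Iglc1, chr16:19061982-19062071: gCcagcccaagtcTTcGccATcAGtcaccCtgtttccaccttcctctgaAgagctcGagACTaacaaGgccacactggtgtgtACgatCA
Iglc3 differed from Iglc2 at 5 of these 90 bases and Iglc1 at 19, and over the whole coding sequence Iglc2 and Iglc3 are 96.2% identical. Of all windows of 50 bases in the annotated transcripts of Iglc2, 10.5% also occur in Iglc3. The share was 5.49% for Ighg2c (all in Ighg2b), 4.15% for Ighg2b, 1.58% for Ighg3 and 0.393% for Ighg1, in other IgG genes, and 0 for Ighm, Ighd, Igha, Igkc and Iglc1. How the authors assigned reads that fit more than one gene is not stated in the labels, so Ighg2b, Ighg2c and Iglc2 carry that uncertainty.

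The libraries held 15786214 to 22932125 counts, and no count of Adamts4 was found in the 3 KO libraries against 900 to 997 in the WT libraries. The 10 markers of colon epithelium were all detected, with a summed level of 9450 to 18989 CPM, the highest in KO 3. CPM are counts divided by library size, here scaled by TMM factors, which correct for differences in library composition. KO 3 stood apart from the other libraries on a first principal component with 44.2% of the variance (58.3, with WT 3 at the other end at -40.7). Fibroblast markers summed to 602 CPM in KO 3 against 2072 to 4430 CPM in the other libraries. Results on the members that rest on KO 3 are given with and without it.

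Antibody constant RNA was scarcer in every KO library than in any WT library. The 10 members together took 0.265%, 0.150% and 0.105% of all counts in KO and 0.621%, 1.14% and 0.348% in WT. The groups did not overlap, and the exact two-sided permutation p was 0.1, the smallest that 3 libraries against 3 can give. Of the 10 members, 9 had a log2 fold change below 0 in edgeR, against 45.8% of all tested genes, and their median was -1.50 against 0.03 over all tested genes. All 10 passed the filter on low counts. The KO values of 5 members (Ighg2b, Ighg2c, Ighg3, Igha and Igkc) all lay below their WT values, as did those of 10.2% of all tested genes. No member had all KO values above WT, as 9.35% of tested genes did. In a bulk sample, fewer antibody-producing cells and less antibody RNA per cell cannot be told apart.

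None of the 10 members passed edgeR's quasi-likelihood test at a Benjamini-Hochberg adjusted p below 0.05 over all genes, a threshold that 0.151% of the 14553 tested genes passed in the lower direction and 0.00687% in the higher. At an unadjusted p below 0.05, 5 members were lower (Ighg2b, Ighg3, Igkc, Igha and Iglc2), against 7.85% of all tested genes. DESeq2 called 3 members lower, Ighg2b, Igkc and Ighg3, against 2.97% of the genes it tested, and none higher, against 0.806%. The authors' deposited table lists these 3 below a false discovery rate of 0.05, with 1.07e-06, 0.00022 and 0.00465. Those values come from the same libraries, so they are no independent result, and the share of all genes below that rate was not counted. Leaving out 1 library at a time, DESeq2 called between 2 and 6 members lower, and Ighg2b and Igkc were among them in every such fit. The share of all genes called in those DESeq2 fits was not counted, so these numbers have no background to be read against.

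**Figure D1:**
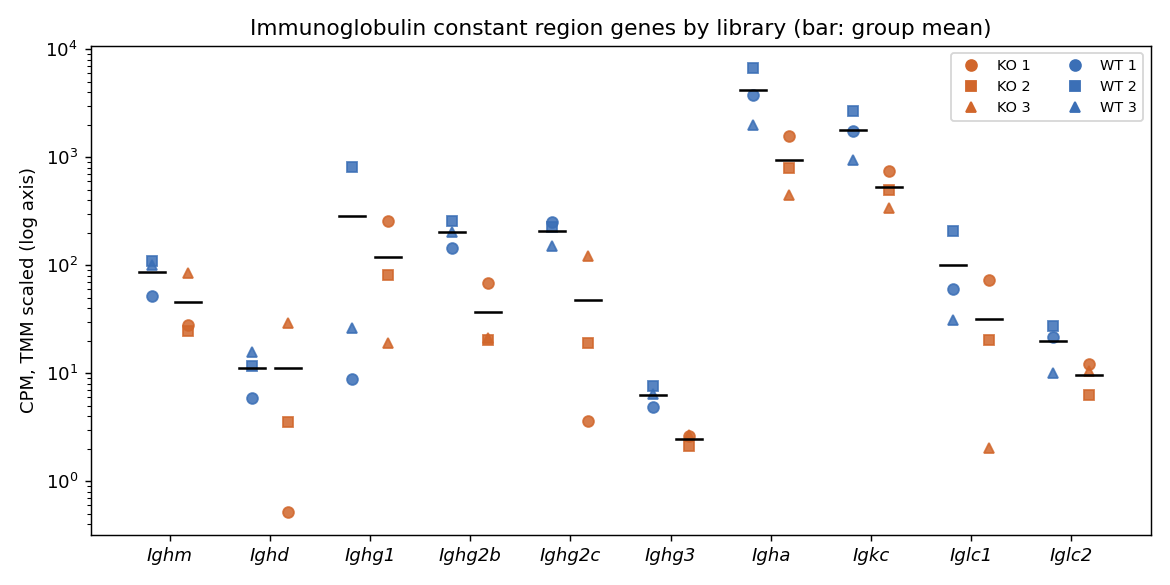
CPM of each constant region gene in each library on a log axis, with WT in blue and KO in orange, a marker shape per replicate number, and a black bar at the group mean. Igha and Igkc lie above the other members in every library, the KO and WT points of Ighg2b, Ighg2c, Ighg3, Igha and Igkc do not overlap, and those of Ighd, Ighg1, Ighg2c and Iglc1 spread over a factor of more than 50 across the 6 libraries.

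IgA carried most of the heavy chain RNA. Igha, the constant gene of the main antibody of gut secretions, stood at 1580, 793 and 447 CPM in KO and at 3789, 6689 and 1994 CPM in WT. The lowest WT library, WT 3, lay above the highest KO library, KO 1, and the values ranged widely within each group. Group means were 940 ± 581 and 4157 ± 2369 CPM (SD, n = 3), and the log2 fold change was -2.15 ± 0.55 (SE, edgeR adjusted p = 0.174). DESeq2 gave an adjusted p of 0.0513, which passed without KO 1 (4.25e-07) or WT 3 (6.44e-05). Between -2.74 (without KO 1) and -1.62 (without WT 2), the edgeR fold change kept its sign when 1 library was left out.

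Igkc, the constant region of the kappa light chain that most mouse antibodies carry, followed Igha. Its levels were 750, 499 and 342 CPM in the KO libraries and 1751, 2709 and 951 CPM in the WT libraries. As with Igha, KO 3 was lowest, WT 2 was highest and the groups were separate. The log2 fold change of Igkc was -1.77 ± 0.42 (SE, edgeR adjusted p = 0.154, DESeq2 adjusted p = 0.00023). In TPM, the authors' abundance corrected for transcript length, Igkc and Igha led the members in both groups at 6277 ± 3167 and 6995 ± 4106 TPM in WT and 1784 ± 730 and 1530 ± 956 TPM in KO (SD, n = 3). Within each group the ranges of these 2 genes overlapped, and neither overlapped with the third in the order, Ighg1, at 492 ± 801 TPM in WT and 199 ± 202.5 TPM in KO. Iglc1, Ighg2c, Ighg2b, Ighm, Iglc2, Ighd and Ighg3 followed in that order in both groups, down to 10.6 ± 2.59 TPM in WT and 3.74 ± 0.401 in KO for Ighg3. Among these, neighbours whose ranges were separate were Ighg2b (332 ± 94.97 TPM) and Ighm (104 ± 38.3) in WT, and Iglc2 (60.8 ± 28.6) and Ighd (12.4 ± 6.49) in WT. In KO no other neighbours were separate.

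Ighg2b, an IgG subclass that TGF-beta favours in mouse B cells, had the largest fold change among the members in the main edgeR fit and in DESeq2 with all libraries. That of Ighg2c was larger in limma-voom (-3.35 against -2.66), in limma on log2(TPM + 1) (-3.30 against -2.72) and without KO 3 (-4.22 against -2.18). It was also larger in edgeR with a term for the replicate number (-3.36 against -2.70). Ighg2b had 1335, 329 and 393 counts in the KO libraries and 3408, 5038 and 3653 in the WT libraries, or 68.6, 20.4 and 21.1 against 146, 257 and 205 CPM. Every WT library lay well above the highest KO library, KO 1, and KO 2 and KO 3 were nearly level. The log2 fold change of Ighg2b was -2.46 ± 0.49 (SE), with an adjusted p of 0.1004 in edgeR and 1.31e-06 in DESeq2. Without KO 1 it was -3.29 and passed in edgeR as well (adjusted p = 0.0201), the 1 member called in any edgeR fit that left out a library.

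Ighg3, a minor IgG subclass raised mainly against carbohydrate antigens, was the least abundant IgG. Its counts were 51, 34 and 50 in KO and 113, 150 and 114 in WT, or 2.62, 2.11 and 2.68 against 4.83, 7.64 and 6.40 CPM. Levels within each group were closer together than for any other member, and the groups were separate. Its log2 fold change was -1.34 ± 0.28 (SE, edgeR adjusted p = 0.115, DESeq2 adjusted p = 0.00327), and DESeq2 no longer called it without WT 2.

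Ighg2c in KO, and Ighg1 in both genotypes, varied far more between libraries. Ighg2c, the subclass favoured by interferon-gamma and the form that C57BL/6 mice, the source of the reference genome, carry, had 71, 306 and 2249 counts in KO and 5893, 4434 and 2690 counts in WT. In CPM these were 3.65, 19.0 and 121 against 252, 226 and 151. The KO libraries all lay below the WT libraries but were far apart among themselves, with KO 1 the lowest and KO 3 next to WT 3. The log2 fold change of Ighg2c was -2.13 ± 0.98 (SE, edgeR adjusted p = 0.401, DESeq2 adjusted p = 0.437). Without KO 3 it was -4.22 in edgeR (adjusted p = 0.113) and -4.20 in DESeq2 (adjusted p = 0.000119).

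The ratio of Ighg2c to Ighg2b counts shows the same spread from within each library. It was 0.0532, 0.930 and 5.72 in KO and 1.73, 0.880 and 0.736 in WT. The WT libraries and KO 2 kept the 2 genes within a factor of 2 of each other. KO 1 held far more Ighg2b than Ighg2c and KO 3 the reverse. Some mouse strains carry Ighg2a in place of Ighg2c, and the labels state no strain, so low Ighg2c counts from little use of the subclass and from another allele cannot be told apart.

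Ighg1, the subclass that interleukin 4 induces, was high in different libraries. It stood at 256, 82.0 and 19.2 CPM in KO and at 8.89, 815 and 26.3 CPM in WT. WT 2 alone held more than the other libraries together, WT 1 was the lowest of all, and the groups overlapped fully. For Ighg1 the log2 fold change was -1.25 ± 1.48 (SE, edgeR adjusted p = 0.760), and it turned to 2.76 without WT 2 (edgeR adjusted p = 0.479). Ighe, the IgE constant gene, which is no member and which interleukin 4 also induces, had 194 counts in WT 2, 26, 7 and 12 in KO, 4 in WT 1 and 0 in WT 3. WT 2 was thus the library with most Ighg1 and most Ighe, and KO 1 came next for both.

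Ighm and Ighd, the classes of unswitched B cells, were set apart by KO 3. Ighm was at 27.9, 24.5 and 84.0 CPM in KO and at 51.5, 108 and 101 CPM in WT. KO 1 and KO 2 lay below every WT library, and KO 3 lay within the WT range. For Ighm the log2 fold change was -0.93 ± 0.49 (SE, edgeR adjusted p = 0.455). Without KO 3 it was -1.73 (adjusted p = 0.159 in edgeR and 3.19e-05 in DESeq2).

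Ighd had 10, 57 and 549 counts in KO and 139, 228 and 282 counts in WT. In CPM these were 0.514, 3.53 and 29.5 against 5.94, 11.6 and 15.8. KO 3 was the highest library of all and KO 1 the lowest, a factor of 57.4 apart, and the WT libraries lay between KO 2 and KO 3. For Ighd the log2 fold change was 0.01 ± 1.05 (SE, edgeR adjusted p = 0.998). Without KO 3 it was -2.48 (adjusted p = 0.291 in edgeR, and 0.0177 in DESeq2 with -2.45).

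**Figure D2:**
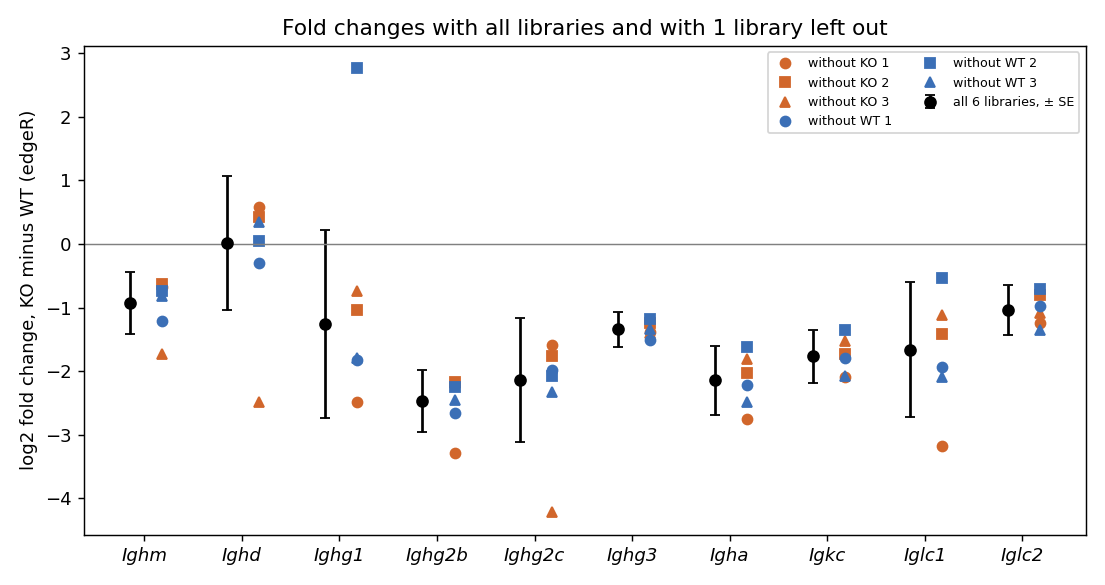
edgeR log2 fold changes (KO minus WT) of the 10 members with all 6 libraries (black, ± SE) and with 1 library left out (colour and shape by the library removed). Ighg2b, Ighg2c, Ighg3, Igha and Igkc stay below -1 whichever library is removed, Ighg1 changes sign without WT 2, and Ighd goes from 0.01 to -2.48 without KO 3.

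The lambda light chain constants were minor beside kappa. Iglc1 stood at 72.4, 20.1 and 2.04 CPM in KO and at 59.9, 209 and 31.2 CPM in WT. KO 1 lay above 2 of the WT libraries, and KO 3 was the lowest by a wide margin. For Iglc1 the log2 fold change was -1.66 ± 1.06 (SE, edgeR adjusted p = 0.548), -0.53 without WT 2 and -3.18 without KO 1. Counts of Iglv1, a lambda variable segment that mouse B cells commonly join to Iglc1, were 2338, 694 and 190 in KO and 2854, 11837 and 1575 in WT, so that both genes were highest in WT 2 and lowest in KO 3.

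Iglc2 stood at 12.2, 6.26 and 10.4 CPM in KO and at 21.5, 27.6 and 9.99 CPM in WT, with WT 3 among the KO values. Its log2 fold change was -1.03 ± 0.39 (SE, edgeR adjusted p = 0.333), with DESeq2 calling it without WT 3 (-1.35, adjusted p = 0.00581). Iglc3, its near copy, had 144, 174 and 58 counts in KO and 91, 114 and 52 in WT and a log2 fold change of 0.75 ± 0.46 (SE, edgeR adjusted p = 0.528). The values of Iglc3 overlapped between the groups, and its point estimate was above 0 while those of Iglc1 and Iglc2 were below.

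Isotype shares, the fraction of the 7 heavy chain members' counts that each takes, were compared next because they do not depend on the total amount of antibody RNA. Igha took 81.5%, 84.0% and 61.7% in KO and 89.0%, 82.4% and 79.8% in WT. KO 1 and KO 2 lay within the WT range, and KO 3 lay far below the lowest WT library. The group means were 75.7 ± 12.2% and 83.7 ± 4.74% (SD, n = 3), and the exact two-sided permutation p was 0.5. Without KO 3 the difference went from -8.02 to -1.01 percentage points.

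**Figure D3:**
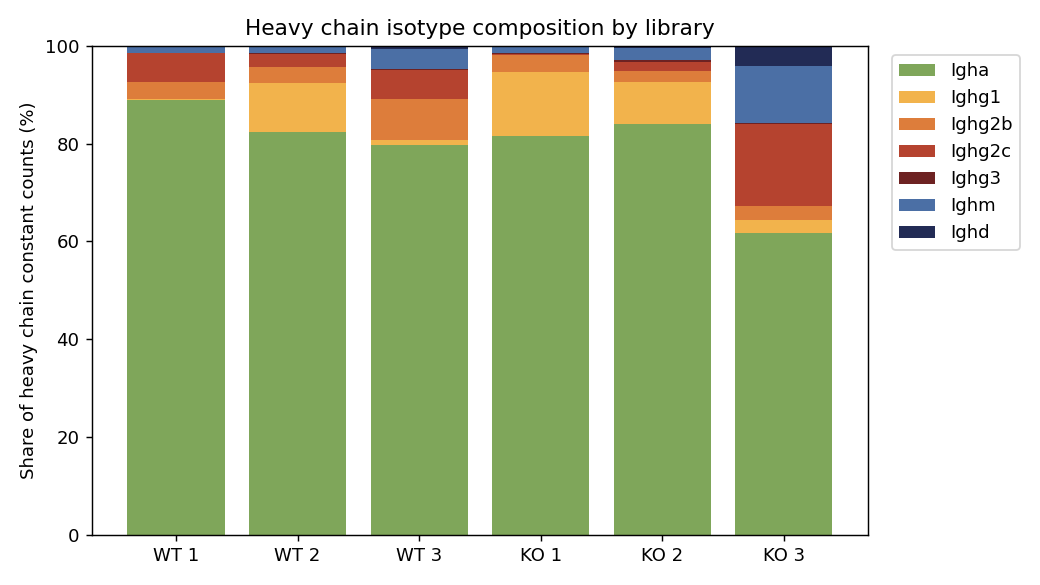
Stacked shares of the heavy chain constant genes in percent of their summed counts, 1 bar per library. Igha fills 79.8% to 89.0% of every bar but KO 3 (61.7%), where Ighg2c, Ighm and Ighd take 16.7%, 11.6% and 4.07%.

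KO 3 had the largest Ighm and Ighd shares of the 6 libraries. Ighm took 11.6% of its heavy chain counts against 1.44% and 2.59% in KO 1 and KO 2 and 1.21%, 1.34% and 4.03% in the WT libraries. Ighd took 4.07% in KO 3, 0.0265% in KO 1, 0.374% in KO 2 and 0.140%, 0.143% and 0.633% in WT. The log2 ratio of Igha to Ighm was 2.41 in KO 3 and between 4.31 and 6.20 in the other 5 libraries. By genotype it averaged 4.42 ± 1.78 in KO and 5.49 ± 1.03 in WT (SD, n = 3, exact permutation p = 0.5), and the difference of -1.07 was -0.07 without KO 3.

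KO 1 stood apart in the log2 ratio of Ighm to Ighd, which rests there on 10 counts of Ighd. This ratio was 5.70 in KO 1, where KO 2 had 2.78, KO 3 1.51 and the WT libraries 3.11, 3.22 and 2.67. The WT libraries differed from each other by less than 1 log2 unit in this ratio, while the KO libraries spanned more than 4. Ighg1 made up 13.2% of the heavy chain counts of KO 1, against 8.68% and 2.65% in KO 2 and KO 3 and 0.209%, 10.05% and 1.05% in WT.

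The summed IgG share was 17.0%, 13.1% and 22.6% in the KO libraries and 9.66%, 16.1% and 15.6% in the WT libraries. Its means of 17.6 ± 4.79% and 13.8 ± 3.57% differed by 3.81 percentage points, less than the SD in KO and slightly more than that in WT (SD, n = 3, exact permutation p = 0.4). The subclass behind that share differed by library, with Ighg1 leading in KO 1, KO 2 and WT 2, Ighg2c in KO 3 and WT 1, and Ighg2b in WT 3. The share of Ighg2b was 3.54%, 2.16% and 2.91% in KO and 3.42%, 3.16% and 8.21% in WT (exact permutation p = 0.3).

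Among light chains, Igkc took 89.9%, 94.98% and 96.5% in KO and 95.6%, 92.0% and 95.8% in WT (exact permutation p = 0.8). Iglc1 took 8.68%, 3.83% and 0.575% in KO and 3.27%, 7.10% and 3.15% in WT (exact permutation p = 1). Of the shares, that of Iglc2 was separate between the groups in counts, at 1.46%, 1.19% and 2.93% in KO and 1.17%, 0.937% and 1.01% in WT (exact permutation p = 0.1). KO 2 (Wilson interval 0.981% to 1.44%) and WT 1 (1.08% to 1.28%) were not distinguishable at this depth, and the groups overlapped with TPM in place of counts or with all constant rows in the denominator (exact permutation p = 0.2 in both). The log2 ratio of light to heavy chain counts was -1.03 ± 0.19 in KO and -1.34 ± 0.12 in WT (SD, n = 3, exact permutation p = 0.2).

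In all, 19 shares and ratios were compared, and none can pass 0.05 with 3 libraries against 3. The groups did not overlap in 3 of them, and the smallest p adjusted over the 19 was 0.633. The widest 95% Wilson interval of a share in 1 library was ± 0.820 percentage points. Small shares were within counting error in places, as for Ighg3, whose group means differed by 0.0884 percentage points while its interval in KO 3 was ± 0.104. These intervals cover counting error only, as reads without molecular identifiers are not independent molecules.

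Jchain followed the order of Igha through the 6 libraries. This gene, which joins IgA into dimers, stood at 289, 221 and 101 CPM in KO and at 570, 1158 and 483 CPM in WT (log2 fold change -1.86 ± 0.46, SE, edgeR adjusted p = 0.162, DESeq2 adjusted p = 0.000328). The log2 ratio of Igha to Jchain was 2.15 ± 0.30 in KO and 2.44 ± 0.35 in WT (SD, n = 3, exact permutation p = 0.4), a difference within the spread of either group. Over all tested genes, 45.8% had log2 fold changes below 0 in edgeR, 7.85% were lower at an unadjusted p below 0.05, and DESeq2 called 2.97% lower. Of 14 plasma cell genes, 12 had log2 fold changes below 0 (median -1.08), none passed in edgeR, 8 were lower at an unadjusted p below 0.05, and DESeq2 called 4 lower. Among them Mzb1, a chaperone of antibody secretion, averaged 6.73 ± 2.995 CPM in KO and 25.5 ± 10.6 CPM in WT (edgeR adjusted p = 0.108, DESeq2 adjusted p = 5.85e-05), and Pou2af1, a B lineage coactivator, 9.81 ± 2.80 and 25.6 ± 10.4 CPM (edgeR adjusted p = 0.162, DESeq2 adjusted p = 0.00351).

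Sdc1 and Xbp1, plasma cell genes that epithelial cells also express, did not pass in edgeR or DESeq2, with log2 fold changes of -0.20 ± 0.23 and -0.16 ± 0.22 (SE). Together with Fkbp11 and Txndc5 they took 79.1%, 78.8% and 89.4% of the summed level of the plasma cell list in KO. In WT these 4 genes took 65.3%, 49.2% and 62.6%, so the groups did not overlap. The log2 ratio of the summed members to that list was 0.68, 0.22 and -0.33 in KO and 1.67, 2.08 and 1.11 in WT (exact permutation p = 0.1), without overlap. The list was thus made up differently in the 2 groups, and the part of those 4 genes in that ratio was not tested.

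The result for genes of B cell identity rested on KO 3. With all libraries, of 14 tested, 9 had log2 fold changes below 0 (median -0.05), and none passed in edgeR or DESeq2 or had an unadjusted p below 0.05. Their summed level was 31.2, 47.8 and 153 CPM in KO and 64.0, 109 and 103 CPM in WT, so KO 3 was highest, as for Ighd. Without KO 3 all 14 lay below 0 (median -1.25), 7 of them at an unadjusted p below 0.05, against 7.21% of the genes tested in that edgeR fit, and none passed the adjusted threshold. T cell genes (median -0.29 with all libraries) then had a median of -0.98, with 8 of 8 below 0. Cd79a, a signalling subunit of the B cell receptor, stood at 5.65, 7.13 and 35.6 CPM in KO and 17.4, 28.6 and 21.8 CPM in WT. Its log2 fold change was -0.48 with all libraries and -1.82 without KO 3 (edgeR adjusted p = 0.787 and 0.104). Ms4a1, which encodes the surface protein CD20, stood at 0.770, 3.04 and 7.03 CPM in KO and 1.71, 4.02 and 4.60 CPM in WT, with a log2 fold change of 0.07 with all libraries and -0.86 without KO 3. The 2 genes of the list with the smallest p were Ebf1, a B lineage transcription factor (log2 fold change -0.62 ± 0.44, SE, edgeR adjusted p = 0.591), and Fcrla, an Fc receptor-like protein of B cells (-0.63 ± 0.52, SE, edgeR adjusted p = 0.654). Ebf1 went to -0.011 without WT 3, and Fcrla to -1.41 without KO 3 and -0.30 without WT 2.

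**Figure D4:**
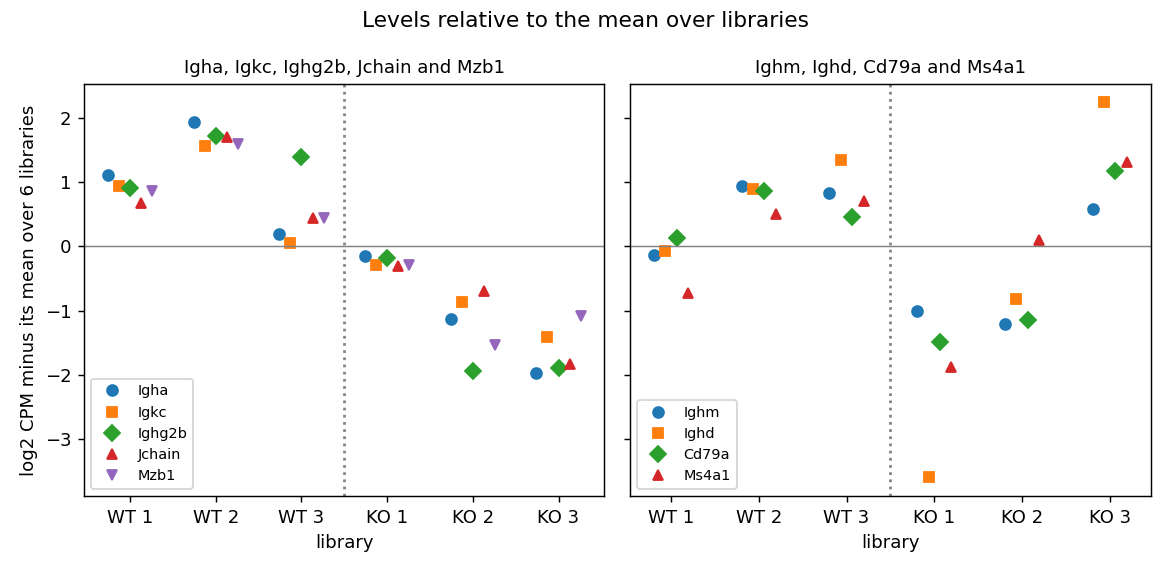
log2 CPM of each gene minus its mean over the 6 libraries, with 1 symbol per gene and the libraries in label order (left panel: Igha, Igkc, Ighg2b, Jchain and Mzb1; right panel: Ighm, Ighd, Cd79a and Ms4a1). In the left panel all symbols are above 0 in the WT libraries and below 0 in the KO libraries, while in the right panel KO 3 is above 0 for each of the 4 genes and KO 1 is below 0 for each.

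The genes whose levels were most like a member's were read from 13709 genes outside the immunoglobulin loci, as Pearson r of log2(CPM + 1) over the 6 libraries. These libraries span both genotypes and differ in depth. A high r over 6 libraries is readily reached when the top 5 of 13709 genes are picked. For Igha the most alike were Ccm2l (0.994), Mmp11 (0.993), Dbh (0.990), Fgfr2 (0.990) and Klhl17 (0.990). Jchain ranked 15 (0.981), Derl3 41 (0.962) and Mzb1 80 (0.949) in the same order, chosen as the plasma cell genes with the highest r. Others of that list were far lower, among them Sdc1 (0.364), Txndc5 (-0.109) and Fkbp11 (-0.646). For Ighm the most alike were Hvcn1 (0.994), Arhgap45 (0.989), Map4k1 (0.989), Rubcnl (0.989) and Septin1 (0.978), and Jchain stood at 0.345. Pou2af1 and Irf4, plasma cell genes that B cells also express, had r of 0.874 and 0.844 with Ighm and 0.733 and 0.680 with Igha.

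Genes of class switching and of germinal centres gave no call in edgeR or DESeq2. Over all 14553 tested genes, 1895 had an unadjusted p below 0.05 in edgeR. Of these, 1142 (7.85% of all tested genes) were lower in KO, and the rest, which were fewer, were higher. Log2 fold changes were below 0 for 45.8% of all tested genes, whose median was 0.03. Of 9 tested genes of the switch machinery, all had log2 fold changes above 0 (median 0.39), 3 of them at an unadjusted p below 0.05. The 2 with the smallest p were Xrcc5, a DNA end-joining protein (0.70 ± 0.22, SE, edgeR adjusted p = 0.261), and Ung, a uracil glycosylase of DNA repair (0.75 ± 0.27, SE, edgeR adjusted p = 0.315), and both are also made by cells other than B cells. Of 5 tested germinal centre genes all lay below 0 (median -0.72), 3 at an unadjusted p below 0.05, and the 2 with the smallest p were Fas (-0.66 ± 0.22, SE, edgeR adjusted p = 0.287) and Bcl6 (-0.72 ± 0.29, SE, edgeR adjusted p = 0.358). B cell precursor genes were near absence, with Rag1 and Igll1 at 0 in all libraries and Vpreb3 at 0.124 to 1.78 CPM.

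Signals that guide switching and survival of antibody-producing cells were tested for 7 genes. Of these, all had log2 fold changes below 0 (median -0.55) and none passed in edgeR. Against 2.97% of all genes it tested, DESeq2 called 1 lower. The called gene was Il6, a cytokine that supports plasma cells, at 0.806 ± 0.560 CPM in KO and 3.89 ± 1.96 in WT (SD, n = 3, log2 fold change -2.27 ± 0.66, SE, edgeR adjusted p = 0.220, DESeq2 adjusted p = 0.0195). Counts of Il6 were low, at 21, 19 and 3 in KO and 48, 117 and 65 in WT. Without KO 3 its edgeR log2 fold change was -1.78. Tnfsf13b, the B cell survival factor BAFF, averaged 7.39 ± 2.29 CPM in KO and 14.0 ± 3.09 in WT (log2 fold change -0.92 ± 0.29, SE, edgeR adjusted p = 0.252). The cytokine genes Il4, Il5, Il10, Il21 and Ifng did not pass the filter on low counts.

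Among homing genes, Cxcl13, the chemokine that draws B cells into follicles, fell from 37.2 ± 16.2 CPM in WT to 4.54 ± 0.982 in KO (SD, n = 3, log2 fold change -3.04 ± 0.38, SE, edgeR adjusted p = 0.0483). Against 0.151% of all tested genes called lower in edgeR, Cxcl13 was the 1 of 10 tested homing genes that passed. It kept that call in 1 of the 6 edgeR fits that left out a library, the one without WT 2, and its adjusted p ranged from 0.0123 to 0.237 over those fits, with fold changes of -3.36 to -2.78. The call was also lost with median-ratio factors (adjusted p = 0.0543) and in limma-voom (adjusted p = 0.0674). Madcam1, the venule address molecule for gut-homing lymphocytes, averaged 3.88 ± 0.447 CPM in KO and 7.74 ± 0.237 in WT (SD, n = 3, edgeR adjusted p = 0.125, DESeq2 adjusted p = 0.00824). KO 3, with the highest Ighd and Ms4a1, had the lowest level of both genes (3.76 CPM for Cxcl13 and 3.49 CPM for Madcam1).

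Pigr, the carrier of IgA into the lumen, overlapped between the groups. It stood at 3982, 3762 and 2657 CPM in KO and at 3260, 3785 and 3711 CPM in WT, with KO 1 the highest and KO 3 the lowest (log2 fold change -0.05 ± 0.19, SE, edgeR adjusted p = 0.934). Of 11 tested genes of antibody receptors and transport, 7 lay below 0 (median -0.30) and none passed in edgeR. Against 2.97% of all genes it tested, DESeq2 called 2 lower. These were the IgG receptor genes of myeloid cells Fcgr4 (11.5 ± 6.45 CPM in KO and 33.6 ± 7.94 in WT, SD, n = 3, DESeq2 adjusted p = 0.0109) and Fcgr3 (24.2 ± 14.8 and 61.6 ± 9.40 CPM, DESeq2 adjusted p = 0.0365).

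Markers of other cell types were summed in the same libraries, and none of those listed here was at 0 in all 6. Blood markers (5 of 5 below 0) summed to 81.2 to 236 CPM in KO and 381 to 1698 CPM in WT, neutrophil markers (7 of 7 below 0) to 9.98 to 37.1 and 86.9 to 189 CPM, macrophage markers (6 of 6 below 0) to 254 to 700 and 573 to 991 CPM, and smooth muscle markers (5 of 5 above 0) to 3232 to 3803 and 1909 to 3037 CPM. T cell markers overlapped between groups, at 34.4 to 74.1 and 39.5 to 73.8 CPM, and KO 3 was the highest of the 6. Mitochondrially encoded genes took 4.03%, 7.66% and 9.50% of counts in KO and 4.29% to 6.05% in WT. The part of these differences in the antibody values was not tested.

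Variable segments, which the same antibody transcripts carry upstream of the constant region, gave a like picture in total for the heavy chain and kappa loci. Counts over 113 heavy chain variable rows were 5110, 1697 and 1256 in KO and 10022, 22166 and 8068 in WT, and over 100 kappa variable rows 7314, 3409 and 2380 in KO and 18989, 39206 and 14202 in WT. In both of these loci every KO library lay below every WT library, WT 2 was highest and KO 3 lowest. Counts over 3 lambda variable rows were 2413, 703 and 223 in KO and 2991, 12065 and 1637 in WT. There the groups overlapped, with KO 1 above WT 3.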

How the data were processed

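Members, gene lists and alternatives were chosen with earlier results of these data known. The deposited table gives read counts per gene and library and TPM values, both used as the authors deposited them, with columns of group means in TPM, a log2 fold change of those means, and a p-value with its false discovery rate, for which no tool is named. These last columns entered no test. Libraries were made from colon RNA with the SMARTER kit, per the labels' protocols. GRCm38, mm10 and mm39 stand in the submitters' processing notes without a role. The aligner, counter, annotation and strandedness of the counting were, for these values, not given in the sources used here. Positions and sequences came from GENCODE M21, matched by gene identifier for all 10 members.

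The main test was edgeR 4.0.16 (quasi-likelihood, TMM, default filter by group, 14553 genes, R 4.3.3), fitted over all genes and libraries. The standard error is the log2 fold change over the root of F. Alternatives were DESeq2 1.42.0, voom of limma 3.58.1, limma on log2(TPM + 1), other scaling factors, scaling without the 260 immunoglobulin rows, other filters, a replicate block and leaving out each library. DESeq2 with 1 library left out was added after seeing the data. Scripts were tested on simulated data. Shares and ratios (0.5 counts added before log2 ratios) were compared by an exact permutation test of group means. Named were all members, the 2 genes with the smallest p in each antibody-related list, and Jchain, Pigr, Ms4a1, Cd79a, Sdc1, Xbp1, Mzb1 and Adamts4, and the 5 genes most like Igha and Ighm (mean of at least 1 CPM). Iglc3, Ighe, Derl3, Irf4, Fkbp11, Txndc5 and the variable segments were named after their values were seen. Depth was 15786214 to 22932125 counts. Vpreb1 and Vpreb2 were not analysed here, and 1 gene is not reported here.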

Additional observations from a re-analysis of the deposited data

How the results depend on the processing

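The number of members called lower was 0 in edgeR with TMM, median-ratio or upper-quartile factors, with scaling that left out the immunoglobulin rows, with other filters, at an adjusted p below 0.1 and with the replicate block, and 0 in both limma fits. It was 3 in DESeq2. Leaving out 1 library gave 0 to 1 members in edgeR and 2 to 6 in DESeq2 (4 without KO 1, 3 without KO 2, 6 without KO 3, 3 without WT 1, 2 without WT 2 and 5 without WT 3). Of all tested genes, 23 passed in edgeR, against 9 with median-ratio factors, 39 with upper-quartile factors, 548 in DESeq2, 68 in limma on log2(TPM + 1), 69 without a filter on low counts, 81 with the replicate block and 1 to 29 in edgeR with 1 library left out. For the DESeq2 fits with 1 library left out, calls over all genes were not counted. Same-numbered KO and WT libraries did not deviate together (correlations of -0.481, -0.182 and -0.496), so the block tests a shared number only.

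Directions changed for genes near 0 or carried by 1 library. The log2 fold change of Ighd was -1.41 in limma-voom, -1.04 in limma on log2(TPM + 1), -1.28 with the replicate block, and ranged from -2.48 to 0.58 (edgeR) and -2.45 to 0.57 (DESeq2, with -0.30 without WT 1) with 1 library left out. That of Ighg1 was 0.38 in limma-voom, 0.28 in limma on log2(TPM + 1), and ranged from -2.49 to 2.76 (edgeR) and -2.48 to 2.75 (DESeq2). That of Ms4a1 was -0.29 in limma-voom, -0.13 in limma on log2(TPM + 1), -0.26 with the block, and ranged from -0.86 to 0.56, that of Pigr from -0.16 to 0.11 and that of Sdc1 from -0.36 to 0.033. With 1 library left out, KO minus WT ranged from -0.174 to 4.91 percentage points for the Ighm share, -0.105 to 1.92 for Ighd, -3.82 to 4.43 for Ighg2c, -2.04 to 1.28 for Igkc and -2.30 to 1.75 for Iglc1, and from -1.20 to 0.10 for the log2 ratio of IgG to Ighm, -0.85 to 1.24 for Ighm to Ighd and -0.46 to 0.35 for Igkc to Iglc. The number of shares and ratios without overlap, 3 of 19, became 4 to 7 with 1 library left out. Groups with fewer libraries fail to overlap more easily, so a rise is built into leaving 1 out. TPM in place of counts, all constant rows in the denominator and a pseudocount of 1 turned the sign of no share or ratio. With either of the first 2 choices the Iglc2 share overlapped between groups (exact permutation p = 0.2) and the log2 ratio of light to heavy chains did not (exact permutation p = 0.1), so that the count stayed at 3. The cause of these dependences was not tested.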

Other observations

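Among 100 kappa variable segments, of which 91 had a count, the share of all kappa variable counts was lower in every KO library than in any WT library for 11 and higher for 2. Of all tested genes, 10.2% had a lower CPM in every KO library and 9.35% a higher one. These percentages are for levels of genes that passed the filter on low counts. The kappa rows were compared as shares and without that filter, so the 2 are not a matched comparison. Shares of one total also depend on each other, so a segment that takes more lowers the rest. The 3 segments below were the most abundant in at least 1 library and were chosen after their values were seen, so no test is given. Igkv10-96, a kappa variable segment, took 22.8%, 44.5% and 12.2% of all kappa variable counts in KO and 5.38%, 5.43% and 8.41% in WT. It was the most abundant kappa segment in each KO library. Igkv1-110 took 5.30%, 2.87% and 2.31% in KO and 17.3%, 13.9% and 13.6% in WT, and the groups did not overlap for either of these segments. Igkv1-117, the most abundant in WT 2, took 6.81%, 1.99% and 4.62% in KO and 10.9%, 14.1% and 6.19% in WT, with KO 1 above WT 3. In counts, Igkv10-96 had 1666, 1516 and 290 in KO and 1022, 2130 and 1194 in WT, against 388, 98 and 55 and 3290, 5434 and 1936 for Igkv1-110. Of the 100 kappa rows, the number with at least 3 counts was 60 in each KO library and 78 to 80 in the WT libraries, with fewer kappa counts in KO.

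Iglc4, annotated as a lambda constant beside Iglc2, had no count in any library.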
